A study of Mus musculus with 10 samples.

Results

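Neurod1, Nfix, Prdm8, Zbtb18, Tshz2 and Ccn2 were examined as 6 genes that mark excitatory neurons or deep layers of the cortex, among 7385 genes that could be assigned counts and 2019 that passed the filter on low counts. All 6 passed. They were chosen by name, as transcription factors of cortical excitatory neurons and deep-layer markers, and each was counted at the gene IDs that lie on the strand opposite to it. The libraries came from a small dissected piece of cortex from part of a hemisphere of C57BL/6 mice. The 5 wild-type mice (wt/wt) were 442 to 663 days old, and the 5 mice homozygous for dTPR (dTPR/dTPR in the sample titles, dTPR-/dTPR- in the genotype field, here dTPR1 homozygous) were 541 to 630 days old. The dTPR allele of Stip1, the gene of the co-chaperone STI1, lacks the domain TPR1. Each library is 1 animal, and the labels name no treatment and no sex.

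Cortical projection neurons acquire their identity from sets of transcription factors that act in sequence, and several of these factors stay on in the adult. Neurod1 encodes a basic helix-loop-helix activator of neuronal differentiation that in the adult brain is best known from granule cells. Nfix encodes a nuclear factor I protein that drives progenitors toward neurons and glia. Prdm8 encodes a PR-domain protein that works in a repressor complex with Bhlhe22 in projection neurons, and Zbtb18 encodes a zinc finger repressor (also called RP58) required for cortical neurogenesis. Tshz2 encodes a teashirt zinc finger protein found in a class of deep-layer neurons with local projections. Ccn2 encodes a secreted matrix protein that marks the deepest cortical layer, the remnant of the subplate, and is also made by vessel wall cells and fibroblasts.

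Most reads (94.2%) were assigned to IDs with a gene's exon opposite them, so the level of each member rests on the stretch that such an ID happens to cover. At their own IDs the members were almost uncounted: Neurod1 and Zbtb18 had 1 count each over the 10 libraries, Ccn2 3, Nfix 13, Tshz2 31 and Prdm8 40. At the opposite IDs the same genes had 2007 counts (Neurod1), 283 (Zbtb18), 3436 (Ccn2), 712 (Nfix), 24216 (Tshz2) and 745 (Prdm8). The sequences below show, for 4 of the members, coding bases shared with the counted ID, at which a transcript read could be counted. These windows are only a part of the exon bases of the counted IDs, and the counts cannot be placed on them. They are GENCODE M21 transcript sequences of build GRCm38, written 5′ to 3′ on the strand of the member. Capitals mark the bases shared with the counted ID, and the lower-case ends are 18 coding bases on either side in the spliced transcript.
Neurod1: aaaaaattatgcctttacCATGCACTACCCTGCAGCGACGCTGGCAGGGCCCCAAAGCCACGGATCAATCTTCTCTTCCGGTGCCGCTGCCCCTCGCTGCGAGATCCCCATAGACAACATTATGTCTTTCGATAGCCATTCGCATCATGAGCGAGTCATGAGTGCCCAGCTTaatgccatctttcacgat
Nfix: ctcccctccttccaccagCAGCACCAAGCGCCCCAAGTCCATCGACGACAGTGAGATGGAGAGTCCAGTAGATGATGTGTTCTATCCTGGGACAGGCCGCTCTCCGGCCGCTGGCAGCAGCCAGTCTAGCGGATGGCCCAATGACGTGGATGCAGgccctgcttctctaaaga
Prdm8: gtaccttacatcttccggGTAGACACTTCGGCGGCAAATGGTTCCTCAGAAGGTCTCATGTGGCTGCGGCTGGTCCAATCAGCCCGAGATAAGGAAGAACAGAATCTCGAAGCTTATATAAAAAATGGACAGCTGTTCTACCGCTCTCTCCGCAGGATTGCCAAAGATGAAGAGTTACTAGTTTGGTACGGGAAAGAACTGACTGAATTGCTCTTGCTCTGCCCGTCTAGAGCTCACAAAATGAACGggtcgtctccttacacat
Tshz2: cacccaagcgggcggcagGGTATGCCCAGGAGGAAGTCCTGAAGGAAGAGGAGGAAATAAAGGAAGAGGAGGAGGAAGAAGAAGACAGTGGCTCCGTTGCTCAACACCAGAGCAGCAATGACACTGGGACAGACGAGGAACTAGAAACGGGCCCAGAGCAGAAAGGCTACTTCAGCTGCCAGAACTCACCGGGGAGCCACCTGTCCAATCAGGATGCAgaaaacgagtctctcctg

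Neurod1 (chromosome 2, 79452521 to 79456751, minus strand) was counted at Gm26755, a long non-coding RNA gene. The capitals above are all 154 bases that the 2 genes share, chr2:79453985-79454138, which lie at bases 900 to 1053 of the 1071 coding bases counted from the start codon. The other 2503 exon bases of Gm26755 lie outside Neurod1. Nfix (chromosome 8, 84699876 to 84800344, minus strand) was counted at G430095P16Rik, which shares a whole coding exon of 137 bases with it (chr8:84726469-84726605) and has its other 584 exon bases in Nfix introns. A further 24 of the 712 Nfix counts came from Lyl1, which shares 4 non-coding exon bases with Nfix. Without Lyl1 the log2 fold change of Nfix between genotypes was 0.99 in place of 0.98.

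Prdm8 (chromosome 5, 98167198 to 98188991, plus strand) was counted at A730035I17Rik, which shares 1409 coding bases with it. The exon printed, chr5:98184461-98184689, is 1 of 3 coding exons in that overlap. Zbtb18 (chromosome 1, 177442351 to 177450764, plus strand) had the smallest overlap, 54 non-coding exon bases shared with Gm26801, whose other 1737 exon bases lie outside the gene. Tshz2 (chromosome 2, 169633013 to 170071816, plus strand) had the largest, since Gm26883 shares 5076 of its 5115 exon bases with it. The window printed for Tshz2, chr2:169883526-169883725, is the start of the long coding exon in that overlap. Ccn2 (chromosome 10, 24595442 to 24598683, plus strand) shares 665 bases with Gm15270, of which 316 are coding. Counts cannot be divided between shared and other bases of an ID. By bases, the IDs of Tshz2 and Prdm8 lie mostly on exons of the member, that of Nfix mostly in introns, and those of Neurod1, Zbtb18 and Ccn2 mostly outside the gene, so these values may include other transcripts.

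**Figure D1:**
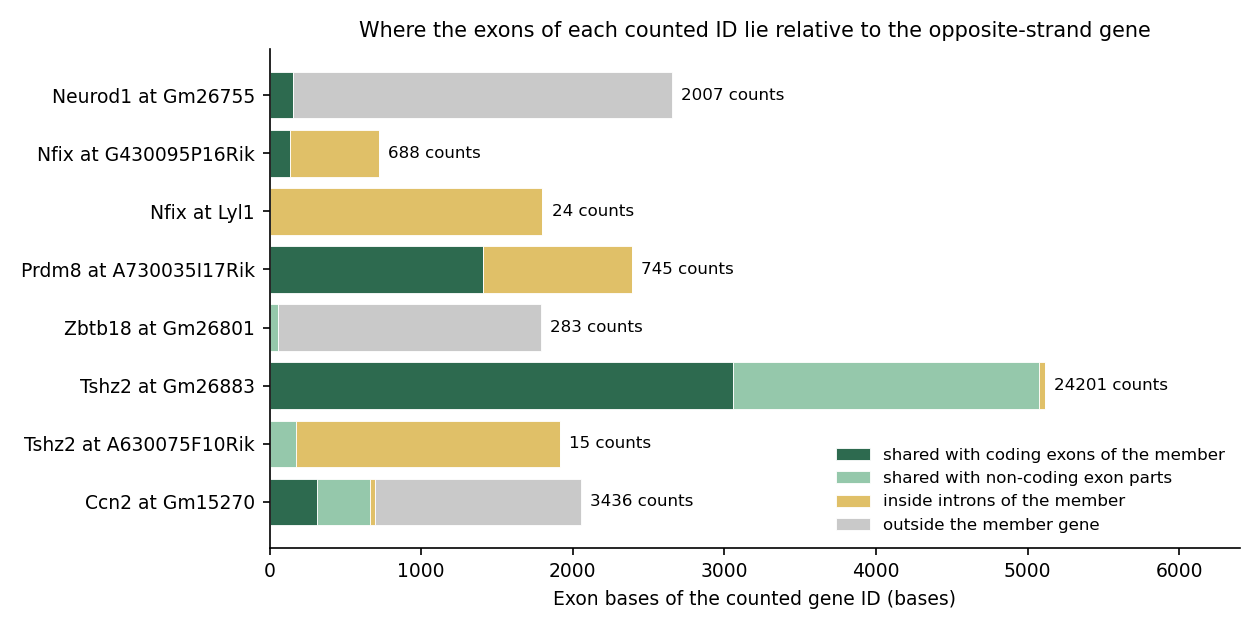
Exon bases (x axis, bases) of the 8 gene IDs at which the 6 members were counted, split by where they lie relative to the member gene, with total counts over 10 libraries beside each bar. Gm26883 lies almost wholly on Tshz2 exons, while Gm26755 shares 154 of 2657 bases with Neurod1 and Gm26801 shares 54 of 1791 with Zbtb18.

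Per kilobase of counted exons, Tshz2 stood highest at 504.3 ± 295.0 CPM per kb and Zbtb18 lowest at 23.8 ± 16.8 (SD over 10 libraries). CPM are counts scaled to a common library sum over the 2019 opposite-strand genes that passed the filter on low counts. Between them came Ccn2 at 240.6 ± 138.8, Neurod1 at 107.1 ± 53.9, Prdm8 at 44.4 ± 28.4 and Nfix at 40.5 ± 30.0 CPM per kb. Neurod1 was above Prdm8 in 10 of 10 libraries, Ccn2 above Neurod1 in 9, and Tshz2 above Ccn2 in 8. Prdm8 and Nfix did not separate, with Prdm8 higher in 6 of 10, and Nfix was above Zbtb18 in 7 of 10. This whole order depends on which bases are counted. The division used all exon bases of the counted IDs, which for Neurod1, Zbtb18 and Ccn2 lie mostly outside the gene. The order therefore describes the counted IDs and does not rank the 6 genes by their own expression. Nfix at G430095P16Rik alone, for instance, was at 136.1 ± 104.1 CPM per kb.

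The ID of Stip1 had 0, 4, 0, 8 and 0 counts from wild-type animal 1 to 5. From dTPR1 homozygous animal 1 to 5 it had 0, 8, 0, 5 and 0. This ID lies on the strand of Stip1, at which the reads of a gene are mostly not counted, and no ID on the opposite strand was assigned to Stip1, so these counts check nothing about the deletion. Among 8 general markers of excitatory neurons, 2 had a counted ID and Arpp21, which encodes a regulator of RNA in forebrain neurons, was present in every library at 141.4 to 639.9 CPM. Some libraries stood apart in markers of other regions. The summed level of 4 striatal genes (Syndig1l, Ppp1r1b, Rarb and Penk, the 4 of 16 listed that could be counted) was 6361 CPM in wild-type animal 3 and 4304 CPM in wild-type animal 2, against 451.1 to 2776 CPM in the other 8 libraries. The summed level of 4 of 8 thalamic markers was 730.6 CPM in dTPR1 homozygous animal 2 and 64.2 to 257.2 CPM elsewhere. In that animal Rgs16, one of these markers, was at 212.8 CPM and Nnat, which encodes neuronatin and was the 1 countable marker of claustrum, at 12196 CPM, the highest of the 10 libraries for both. Lef1, the other thalamic marker tested, was at 146.1 CPM there and highest in wild-type animal 1, at 208.9 CPM. The rest of the thalamic sum in dTPR1 homozygous animal 2 came from markers that did not pass the filter on low counts. The summed level of 2 of 10 mural cell markers, Tagln and Notch3, was 884.1 CPM in wild-type animal 2 and 65.4 to 274.9 CPM elsewhere.

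Over all 2019 genes, 0 passed an adjusted p of 0.05 in edgeR (0% called), and 57 (2.82%) had an unadjusted p under 0.05. DESeq2 called 0, with 138 of the 5158 genes it tested at an unadjusted p under 0.05, and limma-voom with sample quality weights called 0, with 90 of 2019. Fitted on the deposited gene IDs, 6 of the 8 IDs of the members were tested, and edgeR gave 0 of these 6 a p under 0.05 before adjustment, while 2.54% of 3027 IDs had one. None of the 6 members passed, 0 of 6 had an unadjusted p under 0.05 in edgeR, and 3 of 6 had a higher fitted level in dTPR1 homozygous cortex, as did 50.2% of all genes. Groups without overlap were found for 0 of 6 members, against 0.347% of all genes. The median log2 fold change was 0.12 over the members and 0.0017 over all genes tested. The difference in mean log2 CPM, dTPR1 homozygous minus wild type, gives low libraries more weight. It was 0.41 for Neurod1, 1.17 for Nfix, 0.047 for Prdm8, 0.042 for Zbtb18, 0.082 for Tshz2 and -0.19 for Ccn2. Zbtb18 and Tshz2 thus have opposite signs on the 2 measures. The exact two-sided permutation p of these differences was 0.17 for Nfix, 0.46 for Neurod1 and 0.81 or higher for the other 4 (n = 5 each).

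Neurod1 was at 338.2, 125.3, 88.3, 250.0 and 489.5 CPM in wild-type animals 1 to 5. In dTPR1 homozygous animals 1 to 5 it was at 305.7, 142.9, 233.7, 487.5 and 385.1 CPM. Wild-type animals 2 and 3 and dTPR1 homozygous animal 2 were the lowest 3, and the groups overlapped throughout. Means were 258.3 ± 163.2 and 311.0 ± 133.1 CPM (SD, n = 5 each), a log2 fold change of 0.27 with a 95% interval of -0.71 to 1.25 (edgeR, adjusted p = 0.999). It turned to -0.21 without wild-type animals 2 and 3. Its coefficient of variation (SD over mean) was 50.3% over 10 libraries, while counting error alone would give 7.06%, and 94.5% of 200 genes of like abundance had a lower one.

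Nfix was at 88.8, 21.6, 10.9, 76.2 and 145.3 CPM in wild-type animals 1 to 5. In dTPR1 homozygous animals 1 to 5 it was at 263.1, 34.9, 149.8, 135.7 and 94.3 CPM. The lowest 3 libraries were again wild-type animals 3 and 2 and dTPR1 homozygous animal 2, and 4 of 5 dTPR1 homozygous animals lay above the wild-type mean. Nfix averaged 68.5 ± 54.5 against 135.6 ± 84.1 CPM (SD, n = 5 each), a log2 fold change of 0.98 ± 0.63 (SE), with a 95% interval of -0.39 to 2.36 (edgeR, adjusted p = 0.999, unadjusted p = 0.15). Of the exact permutation test above, 0.0079 is the smallest p possible. The coefficient of variation was 74.1%, and 97% of 200 genes of like abundance had a lower one. The fold change was 0.38 without wild-type animals 2 and 3, which had the highest levels of the striatal markers given above, 0.60 without dTPR1 homozygous animal 1, and 0.30 once the striatal level (defined below) entered the model. The 4 striatal genes themselves had a median log2 fold change of -1.28 between genotypes, with 0 positive and 0 called. Striatal level and genotype thus partly vary together, and a fit with both cannot tell them apart for any member. In bulk tissue, fewer cells of a type and less RNA per cell cannot be told apart.

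Prdm8 was at 130.9, 52.6, 42.1, 119.2 and 103.8 CPM in wild-type animals 1 to 5. In dTPR1 homozygous animals 1 to 5 it was at 91.0, 9.53, 118.5, 258.8 and 135.2 CPM. The values of dTPR1 homozygous animals 2 and 4 were the lowest and the highest of all 10, a 27.2-fold range, and the count behind the lowest was 6. Means were 89.7 ± 40.0 and 122.6 ± 90.2 CPM (SD, n = 5 each), a log2 fold change of 0.46 with a 95% interval of -0.80 to 1.71 (edgeR, adjusted p = 0.999). It was -0.023 without dTPR1 homozygous animal 4, 0.76 without dTPR1 homozygous animal 2 and -0.27 after the striatal level was added to the model. The coefficient of variation was 64.1%, and 94.5% of 200 genes of like abundance had a lower one.

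Zbtb18 was at 101.3, 9.43, 27.2, 62.9 and 19.5 CPM in wild-type animals 1 to 5. In dTPR1 homozygous animals 1 to 5 it was at 28.4, 7.94, 70.8, 40.2 and 58.2 CPM. These rest on 5 to 65 counts per library, with wild-type animal 1 the highest, and the values of either group lie among those of the other. The log2 fold change was -0.093 with a 95% interval of -1.40 to 1.22 (edgeR, adjusted p = 0.999). It was 0.48 without wild-type animal 1, -0.56 without wild-type animals 2 and 3 and -0.41 once the model held the striatal level. Counting error alone would give a coefficient of variation of 18.8%, against 70.8% observed, and 89% of 200 genes of like abundance had a lower one.

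Tshz2, the most deeply counted of the 6 with 1329 to 5592 counts per library, was at 8716, 2893, 2821, 2326 and 1622 CPM in wild-type animals 1 to 5. In dTPR1 homozygous animals 1 to 5 it was at 2222, 3833, 3848, 4977 and 2186 CPM. Wild-type animal 1 lay far above the other 9, which spanned 1622 to 4977 CPM. The log2 fold change was -0.11 with a 95% interval of -1.13 to 0.92 (edgeR, adjusted p = 0.999). It was 0.51 without wild-type animal 1, -0.30 without wild-type animals 2 and 3 and -0.45 once the model held the striatal level. Counting error alone would give a coefficient of variation of 2.03%, the observed one was 58.5%, and genes of like abundance had a median of 17.2%.

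Ccn2 was at 325.8, 1028, 245.8, 433.8 and 459.0 CPM in wild-type animals 1 to 5. In dTPR1 homozygous animals 1 to 5 it was at 285.8, 90.5, 699.6, 564.1 and 806.3 CPM. The highest value fell in wild-type animal 2, where Tagln, a smooth muscle gene, was at 797.8 CPM against 38.4 to 235.4 CPM elsewhere; the part of mural cells in the Ccn2 level was not tested. Means were 498.5 ± 308.2 and 489.3 ± 296.1 CPM (SD, n = 5 each), a log2 fold change of -0.028 with a 95% interval of -1.31 to 1.25 (edgeR, adjusted p = 0.999). It was 0.41 without wild-type animal 2. The coefficient of variation was 57.7%, and 98% of 200 genes of like abundance had a lower one.

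**Figure D2:**
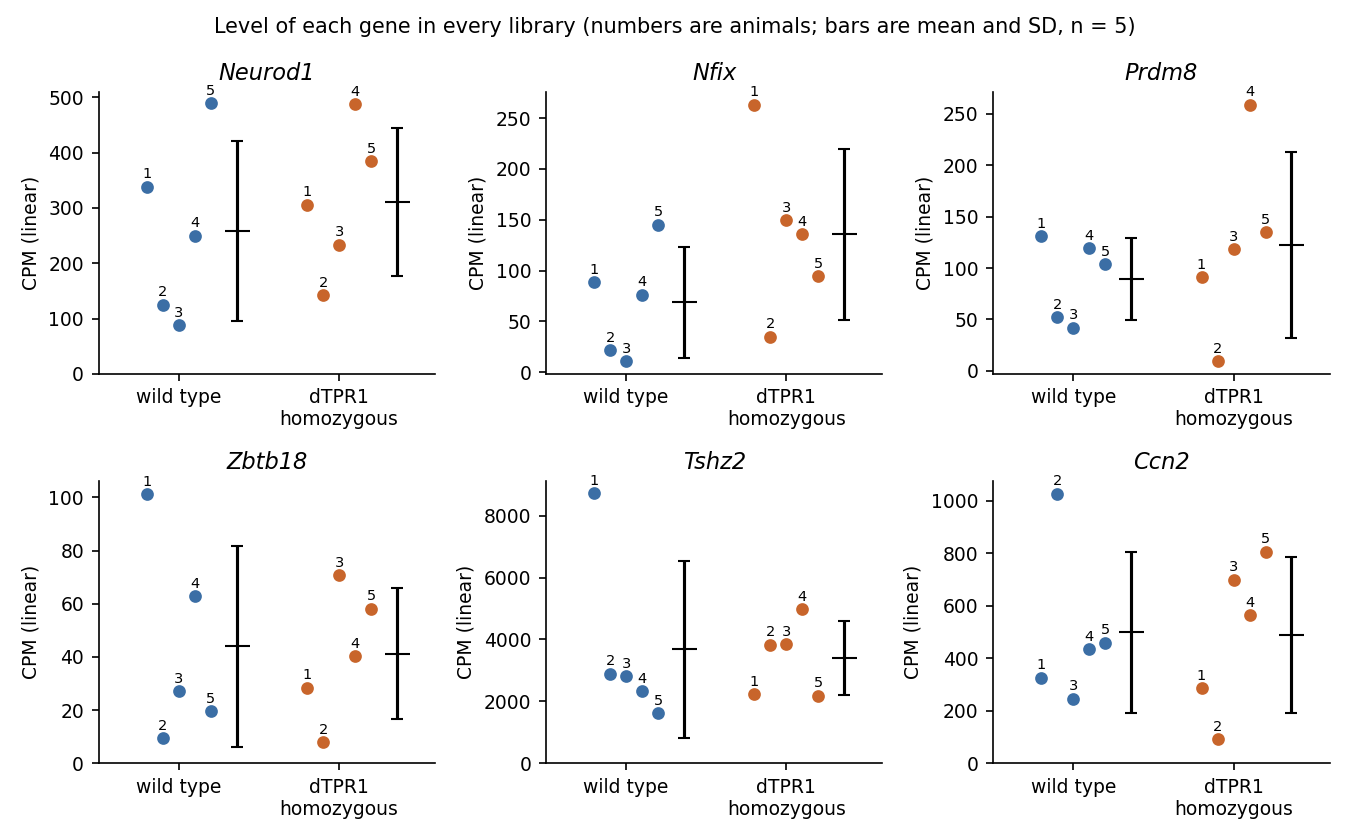
CPM (y axis, linear) of each gene in 5 wild-type and 5 dTPR1 homozygous libraries, with animal numbers beside the points and mean and SD as bars. The groups overlap for all 6 genes, and single animals reach far from the rest, such as wild-type animal 1 at 8716 CPM for Tshz2.

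**Figure D3:**
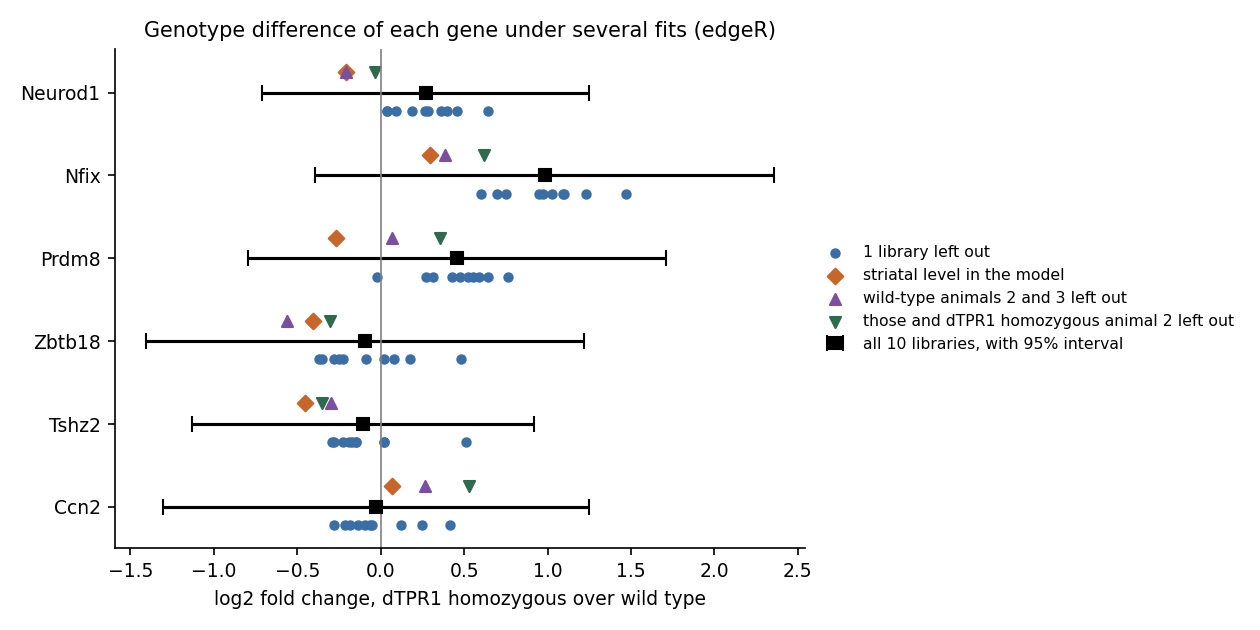
Log2 fold change (x axis, dTPR1 homozygous over wild type) of each gene in the edgeR fit on all 10 libraries with its 95% interval, with 1 library left out, with striatal level as a covariate, and with wild-type animals 2 and 3, or these and dTPR1 homozygous animal 2, left out. All 6 intervals cover 0, and Nfix is the 1 member whose value stayed above 0 in every fit drawn.

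The members did not vary as 1 group over the libraries. The 15 pairwise Pearson correlations of log2 CPM had a median of 0.35, and 12 were positive (n = 10 libraries each). Over the 6 members with all tested genes, the median was 0.0051. Among the 5 transcription factors (all members but Ccn2) the median of 10 pairs was 0.46, from -0.056 for Nfix and Tshz2 to 0.86 for Neurod1 and Nfix. Neurod1 with Prdm8 (0.74), Prdm8 with Zbtb18 (0.73) and Nfix with Prdm8 (0.62) came next among them. Tshz2 had correlations of -0.0044 with Neurod1, 0.083 with Prdm8, 0.35 with Zbtb18 and -0.17 with Ccn2. Ccn2 was closest to Prdm8, at 0.68, which fell to 0.18 without dTPR1 homozygous animal 2. These correlations share the same 10 libraries and their scaling and are given without a p.

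Some members were low together in a few libraries. Neurod1, Nfix, Prdm8 and Zbtb18, a subset singled out after the values were seen, were all among their 3 lowest values in wild-type animal 2 and in dTPR1 homozygous animal 2, and 3 of the 4 were in wild-type animal 3. Tshz2 was not low there, at 2893, 3833 and 2821 CPM against a median of 2857 CPM. These 3 animals were picked for such low values. Leaving out values that are low together tends to lower correlations by itself, so what follows is a description and no test. Without these 3 animals the median over the 15 pairs was 0.073 and 7 were negative (n = 7). Over the 10 pairs of factors it was 0.0019 with 5 negative (n = 7). Neurod1 with Nfix was then at 0.073, Neurod1 with Prdm8 at 0.46 and Prdm8 with Zbtb18 at 0.19. Nfix with Prdm8 was at -0.27, Neurod1 with Zbtb18 at -0.54 and Nfix with Zbtb18 at -0.64. The highest correlations without these animals were those of Tshz2 with Zbtb18 (0.69) and with Prdm8 (0.50), which were 0.52 and 0.34 without dTPR1 homozygous animal 2 alone.

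**Figure D4:**
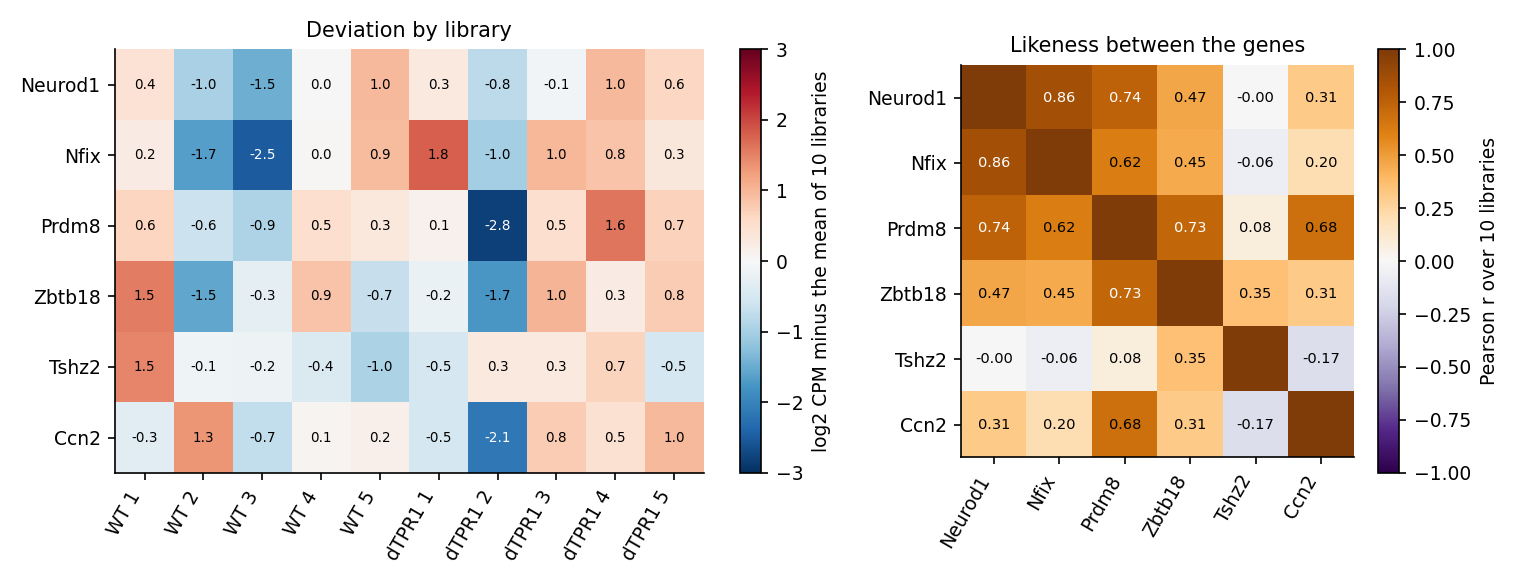
Left, log2 CPM of each gene in each library minus its mean over 10 libraries; right, Pearson correlations between the genes over the same libraries. Neurod1, Nfix, Prdm8 and Zbtb18 are low in WT 2 and dTPR1 2, while Tshz2, also a transcription factor, is not, and is highest in WT 1; Ccn2 is highest in WT 2.

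As a sign of the region dissected, each member was set against the striatal level, the mean log2 CPM of the 4 striatal genes named above, which ran from 6.25 in dTPR1 homozygous animal 4 to 10.4 in wild-type animal 3. All 6 members had a negative correlation with it, as had 51.2% of all genes tested. Nfix had the 4th and Neurod1 the 9th most negative correlation of 2019 genes. For Nfix, Pearson's r was -0.84 (permutation p = 0.0023, adjusted over all genes 0.24) and Spearman's rho -0.83 (permutation p = 0.0051, adjusted 0.30; n = 10). For Neurod1, r was -0.82 (permutation p = 0.0040, adjusted 0.29) and rho -0.76 (permutation p = 0.016, adjusted 0.44; n = 10). Neither passed after adjustment; 3 genes did (0.149%), and 187 (9.26%) had an unadjusted p under 0.05, among them these 2 of the 6 members.

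Both correlations kept their sign on values centred within each genotype and then pooled (n = 10). There r was -0.79 for Nfix (permutation p = 0.022, adjusted 0.55) and -0.83 for Neurod1 (permutation p = 0.013, adjusted 0.55). Without the 2 libraries farthest from the median striatal level, wild-type animal 3 and dTPR1 homozygous animal 4, r was -0.82 for Nfix (permutation p = 0.012, adjusted 0.53; n = 8) and -0.65 for Neurod1 (permutation p = 0.092, adjusted 0.76; n = 8). With wild-type animals 2 and 3 and dTPR1 homozygous animal 2 all left out, r was -0.54 for both (permutation p = 0.20 and 0.23, adjusted 0.999 for both; n = 7).

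Prdm8 had r = -0.54 and rho = -0.42 (permutation p = 0.11 and 0.23, adjusted 0.63 and 0.76; n = 10). Its lowest value was in dTPR1 homozygous animal 2, and without that animal r was -0.83 (permutation p = 0.0052, adjusted 0.27; n = 9). That animal was left out after its value was seen. Without wild-type animal 3 and dTPR1 homozygous animal 4, r of Prdm8 was -0.28 (permutation p = 0.56, adjusted 0.92; n = 8). With wild-type animals 2 and 3 and dTPR1 homozygous animal 2 left out, it was -0.52 (permutation p = 0.25, adjusted 0.999; n = 7). Zbtb18 and Tshz2 had r of -0.30 each (rho -0.15 and -0.10, permutation p = 0.39 and 0.41 for r and 0.68 and 0.79 for rho; n = 10). Ccn2 had r = -0.053 and rho = -0.042 (permutation p = 0.89 and 0.92; n = 10), so no relation of these 3 to the striatal level was detectable with 10 libraries. Adjusted over all genes, these p were 0.83 or higher for r and 0.94 or higher for rho.

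**Figure D5:**
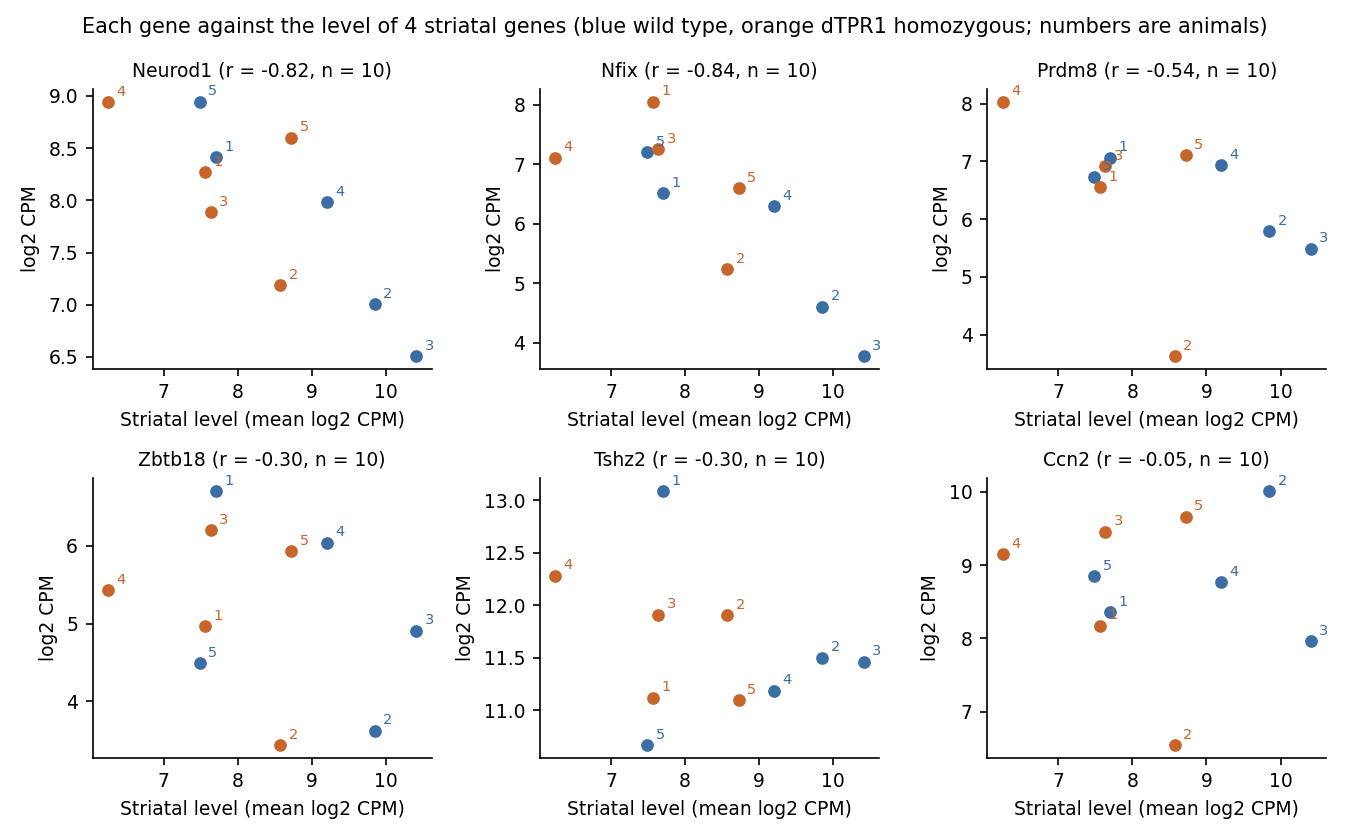
Log2 CPM of each gene (y axis) against the mean log2 CPM of 4 striatal genes (x axis) in 10 libraries, blue for wild type and orange for dTPR1 homozygous. Nfix and Neurod1 fall from left to right, and Zbtb18, Tshz2 and Ccn2 show no clear slope. Prdm8 falls more clearly with dTPR1 homozygous animal 2 set aside, a choice made after its value was seen.

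Age, the other quantity the labels give, was also compared with each level. Pearson's r was negative for 5 of 6 members, against 51.4% of all genes, and ran from -0.30 for Neurod1 to 0.44 for Tshz2, Spearman's rho from -0.57 for Ccn2 to 0.45 for Tshz2, and 0 of 6 members had an unadjusted permutation p under 0.05, against 6.24% of all genes. For Tshz2 the permutation p was 0.20 for r and 0.19 for rho, for Neurod1 it was 0.42 and 0.18, and for Ccn2 it was 0.40 and 0.093 (n = 10). Adjusted over all genes, these p were 0.73 or higher, and without the youngest animal of each genotype r was 0.38 for Tshz2, -0.45 for Neurod1 and -0.33 for Ccn2 (n = 8).

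Few other genes of cortical identity could be measured beside the members. Of 27 further cortical excitatory transcription factors, 5 had a counted ID, and Nfia, a relative of Nfix, was among those tested. Nfia averaged 9.58 CPM in wild-type animals and 16.3 CPM in dTPR1 homozygous animals, and did not pass (edgeR, log2 fold change 0.73 ± 1.16, SE). Of 26 other deep-layer and subplate markers 5 had a counted ID, Syt6 at 0 in every library, and 0 were tested; their summed level was 2.72 to 22.9 CPM in wild-type animals and 4.27 to 41.5 CPM in dTPR1 homozygous animals. Of 13 upper-layer markers 2 had a counted ID, and of 21 other members of the 6 gene families only Nfia was tested.

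Neurod1 is also a marker of granule cells of hippocampus and cerebellum. Of 9 other hippocampal markers 3 had a counted ID, Zbtb20 at 0 in every library, with a sum of 10.9 to 27.6 CPM, and 0 were tested. No cerebellar granule cell, oligodendrocyte or meningeal fibroblast marker had a counted ID. Among inhibitory neuron genes, 3 of 12 were tested: Slc32a1, the vesicular GABA transporter, was at 1193 and 815.1 CPM on average, and Dlx1 at 87.5 and 126.4 CPM, with the list's highest sum (2261 CPM) in wild-type animal 3. Of 8 astrocyte markers 3 were tested, Hes5 with a log2 fold change of -0.87 ± 0.28 (SE), Slc1a2 with 1.07 ± 0.51 and Aldh1l1 with 0.20 ± 0.31. Lef1 and Rgs16 of thalamus had -0.42 ± 0.47 and 0.16 ± 0.60, Nnat 0.32 ± 0.70, Tagln and Notch3 of mural cells -0.94 ± 0.66 and -0.60 ± 0.66, and Slc2a1 of endothelium 0.41 ± 0.37. Of 8 microglia markers 3 had a counted ID, with Cx3cr1 at 0 in every library. The 4 striatal genes had a median of -1.28, with Ppp1r1b at -1.41 ± 0.63 and Syndig1l at -0.95 ± 0.74. Across all 17 lists, 20 genes beside the members were tested, 0 passed in edgeR, 2 had an unadjusted p under 0.05 and 10 had a positive fold change.

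The genes with the most similar pattern over the 10 libraries, by Pearson's r of log2 CPM among the 2013 tested genes that are no member, differed from member to member. For Neurod1 they were Kcnj9, a potassium channel gene, at 0.91, Gm765 at 0.88 and Pip4k2c, a lipid kinase gene, at 0.88. For Nfix they were Mgll, which encodes monoacylglycerol lipase, at 0.94, Slc1a2, the main glutamate transporter of astrocytes, at 0.94, and Ttc7b at 0.92. For Prdm8 they were Chn1, which encodes a neuronal chimaerin, at 0.94, Ntn5, a netrin gene, at 0.94, and Grin1, the obligatory NMDA receptor subunit, at 0.92. For Zbtb18 they were 1110008P14Rik at 0.90, Rtkn at 0.85 and Sprn at 0.83. For Tshz2 they were Rffl at 0.89, Gm15417 at 0.78 and the splicing factor gene Srsf1 at 0.78. For Ccn2 they were Gm29585 at 0.87, Fam131b at 0.87 and Galt, of galactose breakdown, at 0.85. These genes were picked for their likeness, so the values describe the libraries and are not tests.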

How the data were processed

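RNA from the cortex of 10 mice was sequenced, and the authors deposited unnormalised counts, a whole number for each Ensembl gene ID in each library. TopHat, HTSeq and DESeq2 with build GRCm38.p5 were used per the submitters' processing notes; versions and the strand setting are not given in the sources used here. IDs were matched to GENCODE M21 (GRCm38): 52403 of 53090 were found, and 0 rows named no gene. Counts of 8188 IDs were summed over 7385 genes, each holding 90% or more of the exon bases that face the ID, which covered 88.0% of counts. The assignment rests on positions, not on reads.

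Library totals ran from 667751 to 927242 counts, and 3 counts corresponded to 3.66 to 4.97 CPM. CPM are counts scaled to a common TMM-adjusted sum over the 2019 genes that passed the filter on low counts. For log2 CPM a prior count of 2 was used. Genotypes were compared with edgeR 4.0.16 in R 4.3.3 (filterByExpr, robust quasi-likelihood fit, Benjamini-Hochberg adjustment over all 2019 genes tested, threshold 0.05). Correlations used 100000 permutations and the same adjustment over all genes tested, in place of the adjustment over the 6 members first planned. P-values measure the spread between animals, and reads carry no molecular identifiers, so the 3-count limits cover counting error only. On simulated counts for 2019 genes, the fit called 1 of 82 genes changed 1.5-fold, 15 of 59 changed 2-fold and 35 of 59 changed 4-fold, with 0 false calls. Genes named are the 6 members, Stip1, in each list the 2 tested genes with the highest mean CPM, and the 3 genes most like each member. Further list genes, which were chosen after their values were seen, are Rarb, Penk, Aldh1l1, Syt6, Zbtb20 and Cx3cr1. Some results are not reported here. The members and lists were chosen with earlier results of these data known. Other settings tried were upper-quartile or DESeq2 scaling, no filter on low counts, 1 CPM in 5 libraries, the test of DESeq2 1.42.0, limma-voom with sample quality weights (limma 3.58.1), age, striatal level or animal number in the model, each library left out, other overlap shares (50% and 100%) and no mitochondrial IDs.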

Additional observations from a re-analysis of the deposited data

Results flagged for a closer look

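Levels of the 6 genes, as linear CPM, and the striatal level, as mean log2 CPM, were examined in each genotype for a single animal far from the other 4. In 2 of the 14 groups of 5 values there was one, where chance gives about 1 in 20 for normally spread values. Wild-type animal 1 stood apart for Tshz2 at 8716 CPM, with 82.1% of the group's range between it and the next animal. Wild-type animal 2 stood apart for Ccn2 at 1028 CPM, with 72.8% of the range between it and the next animal. Whether 2 is an excess was not tested.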

How the results depend on the processing

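No member passed under any alternative. The 0 genes called held under every setting except no filter on low counts, where edgeR called 2 opposite-strand genes and 2 gene IDs. Fits that drop dTPR1 homozygous animal 2 together with wild-type animals 2 and 3, the correlations without dTPR1 homozygous animal 2 and Nfix without Lyl1 were chosen after seeing the data. Log2 fold changes that turned sign were, with the striatal level in the model, Neurod1 at -0.21, Prdm8 at -0.27 and Ccn2 at 0.067; without wild-type animals 2 and 3, Neurod1 at -0.21 and Ccn2 at 0.27; without these and dTPR1 homozygous animal 2, Neurod1 at -0.035 and Ccn2 at 0.53; and with limma-voom and sample quality weights, Zbtb18 at 0.16, Tshz2 at 0.0089 and Ccn2 at 0.080. With the animal number as a replicate block, Zbtb18 was at 0.057 and Tshz2 at 0.13, and 0 genes were called. Animals with the same number had deviations with correlations of -0.11 to 0.097, and 2 of 5 wild-type animals were closest to their own number. These 5 values gave no clear sign that the numbers pair the animals and cannot exclude it. With 1 library left out, fold changes ran from 0.040 to 0.64 for Neurod1, 0.60 to 1.47 for Nfix, -0.023 to 0.76 for Prdm8, -0.37 to 0.48 for Zbtb18, -0.29 to 0.51 for Tshz2 and -0.28 to 0.41 for Ccn2. Differences in mean log2 CPM ran from 0.091 to 0.70, 0.69 to 1.57, -0.35 to 0.75, -0.34 to 0.48, -0.15 to 0.46 and -0.46 to 0.32 in the same order. The correlation of Ccn2 with the striatal level turned to 0.28 without the 2 farthest libraries and 0.092 without the 3 animals, that of Zbtb18 to 0.34 without the 3 animals, and that of Zbtb18 with age to 0.37 without the 2 farthest. The causes were not tested. Zbtb18, at 5 to 65 counts, is the member most limited by depth.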
